A study of Homo sapiens with 6 samples.

Results

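The 9 genes described here encode complement components and the membrane proteins that restrain them: C3, C5, CFB, CFI, C1R, C1S, CD46, CD55 and CD59. They were taken by gene name from a table of 58735 genes, and all 9 were found. The table came from A549, a human lung adenocarcinoma cell line, sequenced as 3 libraries of cells transduced with an IL17D lentiviral vector (IL17D-overexpressing cells) and 3 libraries of cells with the empty vector (control cells). Both groups were grown in RPMI1640 with fetal bovine serum and differed, as far as the labels say, only in the insert. The vector's name gives a human PGK promoter and a GFP marker, which the control cells would then carry too, and nothing states whether the 3 libraries of either group stem from separate transductions or cultures, so the p-values measure only the spread between these samples, which may be technical. The comparison asked which transcripts moved when A549 cells made IL-17D, a secreted cytokine of the IL-17 family.

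Complement is a cascade of plasma proteases that tags surfaces with fragments of C3 and ends in a pore built from C5b and the later components. The classical route starts with C1q and its attached proteases, of which C1r activates C1s and C1s cleaves C4 and C2. The alternative route amplifies on C3b with factor B. Host cells hold the cascade back at their own surface. CD55 speeds the decay of the C3 and C5 convertases, CD46 is the cofactor with which factor I cuts C3b and C4b, and CD59 blocks the last step of pore assembly. The liver makes most plasma complement, and epithelial cells of the lung also transcribe part of the set.

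Of the 9 genes, CD55 rose and C5 fell in IL17D-overexpressing cells, each by about the same proportion. CD55 was higher by 16.2% and C5 fell by 16.6%. Among the 7 genes with enough counts to be tested, only these 2 passed an adjusted p of 0.05 (quasi-likelihood test of edgeR, with Benjamini-Hochberg adjustment over all 15754 tested genes), where 1.58% of all tested genes passed the same threshold, 0.673% of them higher and 0.908% lower. C3, C1R, C1S, CD46 and CD59 did not pass, and CFB and CFI had almost no reads. The 9 genes were chosen with earlier results of these data known, so the calls are no independent result about the set. Because these are bulk libraries, fewer cells with a transcript and less of it per cell cannot be told apart.

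The stretches upstream of the start sites of both genes that moved are given as the DNA next to the transcripts counted here. RefSeq start sites were at hand for 7 of the 9 members, and C3 and C1S had no entry. The windows hold the 250 bases before the start site nearest to the gene's start in the table, 5′ to 3′ on the gene's strand, in build GRCh38.p14. Capitals mark every match to a searched motif. CD55 lies at chr1:207321428-207321677 on the plus strand, and C5 at chr9:121050276-121050525 on the minus strand.
CD55: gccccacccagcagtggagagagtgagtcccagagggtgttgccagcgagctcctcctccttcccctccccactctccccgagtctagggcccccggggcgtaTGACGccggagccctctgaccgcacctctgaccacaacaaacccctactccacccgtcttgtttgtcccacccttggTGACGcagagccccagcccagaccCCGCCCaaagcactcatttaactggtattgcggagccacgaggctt
C5: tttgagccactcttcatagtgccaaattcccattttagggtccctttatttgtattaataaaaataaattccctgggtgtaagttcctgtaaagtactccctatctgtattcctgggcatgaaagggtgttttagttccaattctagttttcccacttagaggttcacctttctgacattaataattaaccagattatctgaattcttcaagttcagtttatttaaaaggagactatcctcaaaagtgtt
The motifs searched on both strands were AP-1 (TGANTCA), the half-site of the cAMP response element (TGACG), NF-kB, STAT (TTCNNNGAA), C/EBP (TTGCNNAA) and the GC box (GGGCGG). In the CD55 window, TGACG occurred 2 times, from 147 and from 70 bases before the start site, and a GC box occurred on the reverse strand from 46 bases before it, none of them overlapping. Over 35116 RefSeq windows of the same length, 21.2% held TGACG and 42.6% held a GC box. The other motifs occurred in 6.57% (AP-1), 9.96% (NF-kB), 6.57% (STAT) and 9.05% (C/EBP) of them. The C5 window printed here held none of the 6 motifs. It had 34.8% G and C, above 5.27% of all windows, and the CD55 window had 64%, above 64.4% of them. RefSeq gives C5 another start 24589 bases upstream of the one in the table. The window before that start held TGACG 1 time, from 212 bases before it, and had 69.2% G and C, above 77.5% of all windows, so that neither the absence of motifs nor the low G and C content holds for both C5 starts. The counts per gene do not separate transcripts from either start. The CD55 window lies inside the span the table gives for CD55, which begins 302 bases before the RefSeq start.

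Depth and identity of the libraries set the precision of these values. Counts on genes totalled 14319398 to 16521021 per library, and 3 counts, the limit that a count of 0 allows, were 0.182 to 0.210 CPM (edgeR's library-scaled counts, with TMM factors), covering counting error only. IL17D had 18 to 34 counts in control libraries and 26772 to 32155 in IL17D-overexpressing libraries, as labelled. Of the epithelial markers, KRT7, KRT8 and KRT18 were high, with 7648 ± 130 CPM (SD, n = 3) for KRT8 in control cells, whereas EPCAM was at 1.05 ± 0.375 CPM. KRT19 was also low, at 0.370 CPM in control and 0.415 CPM in IL17D-overexpressing cells, and was not tested. Of the alveolar type II markers, the surfactant genes SFTPA1, SFTPA2, SFTPB, SFTPC and SFTPD were at or near 0. ABCA3, from the same list, had 83.0 ± 4.37 CPM in control and 85.1 ± 1.17 CPM in IL17D-overexpressing cells (SD, n = 3 each). NAPSA had 1.56 and 0.857 CPM, and LAMP3 had 0.432 and 0.397 CPM. PTPRC, a leukocyte marker, and the T-cell markers CD3D and CD3E had no count in any library. Other myeloid and lymphoid markers were counted at low levels, with 8 to 20 counts per library for CD14, 1 to 9 for CD79A and 1 to 4 for NKG7. Summed CPM ranged over 2.30 to 3.25 in control and 3.29 to 4.01 in IL17D-overexpressing libraries for 7 myeloid markers, and the part of this in the results was not tested. Of the 7, ITGAM had 1.78 and 2.50 CPM and CD14 had 0.773 and 0.842 CPM in control and IL17D-overexpressing cells. These were the 2 tested, and neither was called (adjusted p = 0.52 and 0.95 from edgeR). CD68 had 3, 1 and 4 counts in control and 0, 1 and 1 counts in IL17D-overexpressing replicates, or 0.167 and 0.0436 CPM on average. Both means were below the limit of 3 counts, the groups overlapped, and CD68 was not tested. For 5 endothelial markers the ranges were 0.746 to 1.31 and 0.669 to 1.15. For 6 fibroblast markers they were higher, at 22.7 to 25.2 and 19.6 to 24.4. Most of this was COL1A1, with 23.3 CPM in control and 21.0 CPM in IL17D-overexpressing cells (adjusted p = 0.58 from edgeR). Of the 5 tested epithelial markers only CDH1, which encodes E-cadherin, passed, and it fell from 43.4 ± 2.65 to 35.7 CPM (log2 fold change -0.28, adjusted p = 0.031 from edgeR).

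Per length, the membrane regulators were the most abundant members. In TPM (counts divided by gene length and scaled to the library), control cells had 102.9 ± 6.04 TPM of CD46, 42.7 ± 0.104 of CD55 and 41.3 ± 2.005 of CD59 (SD, n = 3 each). C5 followed with 31.3 ± 1.47 TPM, C3 with 14.2 ± 0.957, C1S with 11.1 ± 0.580 and C1R with 2.19 ± 0.301. CFB and CFI came last with 0.123 and 0.0141 TPM. CD55 and CD59 did not differ beyond their spread in control cells. In IL17D-overexpressing cells they did, with 49.2 ± 0.656 TPM of CD55 and 40.3 ± 0.831 TPM of CD59. The order of the 9 genes was the same in both groups. On this scale, averaged over the 6 libraries, CD46 lay above 92.0% of all tested genes, CD55 above 79.1%, CD59 above 76.7%, C5 above 68.5%, C3 above 49.8%, C1S above 44.7% and C1R above 14.1%.

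**Figure D1:**
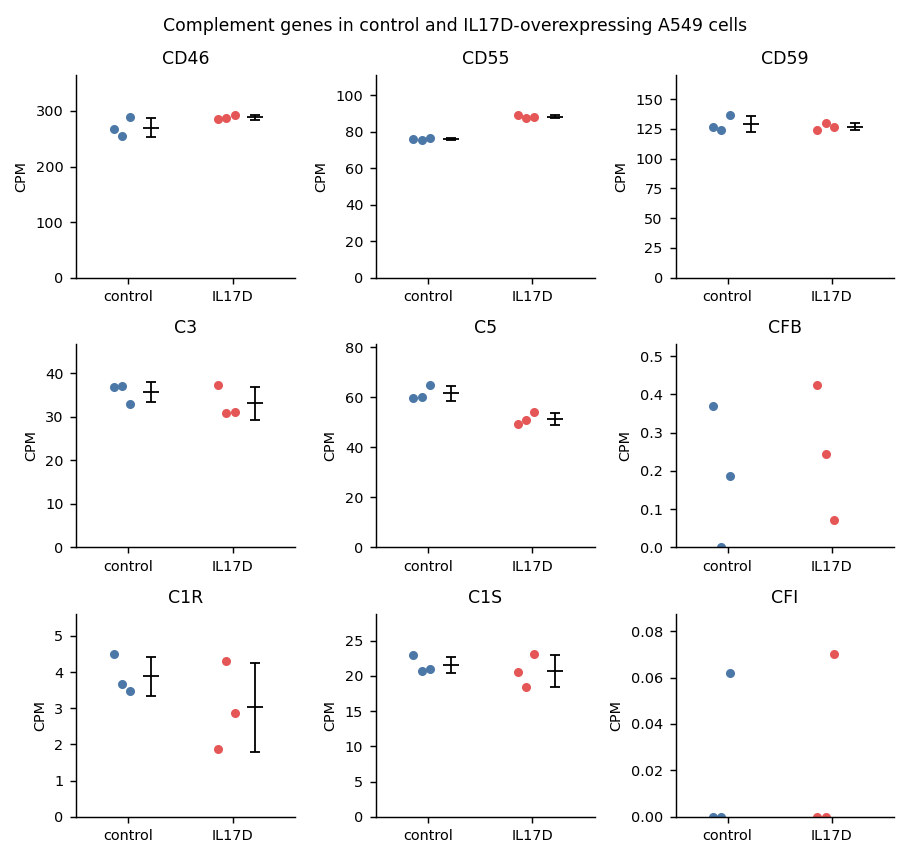
CPM (counts scaled to library size, vertical axis from 0, a scale of its own for each gene) of the 9 genes in the 3 control (blue) and 3 IL17D-overexpressing (red) libraries, 1 point per library; black marks are the mean and SD of 3 libraries, left out for CFB and CFI. CD55 sits between 75.5 and 76.4 CPM in control and between 87.6 and 89.1 CPM in IL17D-overexpressing libraries, C5 lies lower in every IL17D-overexpressing library, and in the other 7 genes the groups overlap.

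Among the membrane regulators, CD55 was the only one called, and it was higher in IL17D-overexpressing cells. CD55 (ENSG00000196352, chromosome 1, 207321376 to 207386804, plus strand) encodes decay-accelerating factor, a protein held in the membrane by a lipid anchor. In control replicates 1, 2 and 3 it had 1235, 1092 and 1229 counts, against 1466, 1440 and 1257 counts after IL17D overexpression. After scaling this was 76.0, 75.5 and 76.4 CPM in control cells and 89.1, 87.6 and 88.1 CPM in IL17D-overexpressing cells. All 3 IL17D-overexpressing libraries lay above all 3 control libraries. The groups did not overlap for 2 of the 7 tested members, CD55 and C5, and for 15.8% of all tested genes. The log2 fold change of CD55 was 0.22 (standard error 0.048, 95% interval 0.12 to 0.31, adjusted p = 0.0096 from edgeR). Its libraries agreed more closely than counting allows on average, with an SD of 0.463 CPM in control and 0.784 CPM in IL17D-overexpressing cells, where counting error alone gives 2.21 and 2.37 CPM. The standard error above comes from a spread modelled across genes and not from these SDs. Only 1.27% of the 31-base stretches in CD55 transcripts occur in transcripts of another gene, and no other annotated gene overlaps it. Counts per gene do not separate its anchored and soluble transcript forms.

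CD46 (ENSG00000117335, chromosome 1, 207752057 to 207795513), which encodes membrane cofactor protein and lies on the same arm of chromosome 1, had 266.9, 255.1 and 288.3 CPM in control replicates 1, 2 and 3. In IL17D-overexpressing replicates it had 285.1, 287.5 and 292.4 CPM. Control replicate 3 lay among the IL17D-overexpressing libraries, and the other two control libraries lay below them. The log2 fold change was 0.093 (standard error 0.039, 95% interval 0.015 to 0.17, unadjusted p = 0.0207 and adjusted p = 0.31 from the edgeR model). Without control replicate 3, it was 0.14 with an adjusted p of 0.029 from the same model, so the call on CD46 depended on that library. CD59 (ENSG00000085063, chromosome 11, 33703010 to 33736491), the inhibitor of the membrane pore, had 126.2, 124.1 and 136.5 CPM in control cells and 123.8, 130.1 and 126.9 CPM in IL17D-overexpressing cells. The groups of CD59 overlapped throughout. Its log2 fold change was -0.023, with a 95% interval of -0.11 to 0.067, which is 0.924 to 1.05 as a fold (adjusted p = 0.91 from the edgeR model). AL049629.2 overlaps CD59 on the same strand and had 0 or 1 counts per library. Of the 31-base stretches in CD59 transcripts, 8.13% occur in other genes, most often in AL049629.2.

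Ratios taken within a library do not depend on how libraries are scaled. Per length, CD55 stood at 0.420, 0.436 and 0.391 of CD46 in control replicates 1, 2 and 3 and at 0.461, 0.449 and 0.444 in the IL17D-overexpressing replicates. Relative to CD59, CD55 stood at 1.06, 1.07 and 0.981 in control cells and at 1.26, 1.18 and 1.22 in IL17D-overexpressing cells. In both ratios every IL17D-overexpressing library was above every control library. CD55 was picked as the called member and had no overlap in CPM itself, so both ratios largely restate its difference. How often ratios of other gene pairs separate the groups was not counted. CD46 relative to CD59 gave 2.49 ± 0.0396 in control and 2.703 ± 0.0645 in IL17D-overexpressing cells (SD, n = 3 each), also without overlap. The ratios are given as values, without a test. CD55 made up 15.2% to 16.6% of the summed CPM of the 3 regulators in control libraries and 17.3% to 17.9% in IL17D-overexpressing libraries. The sum itself overlapped between the groups, with 454.7 to 501.3 CPM in control and 497.985 to 507.4 CPM in IL17D-overexpressing libraries.

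**Figure D2:**
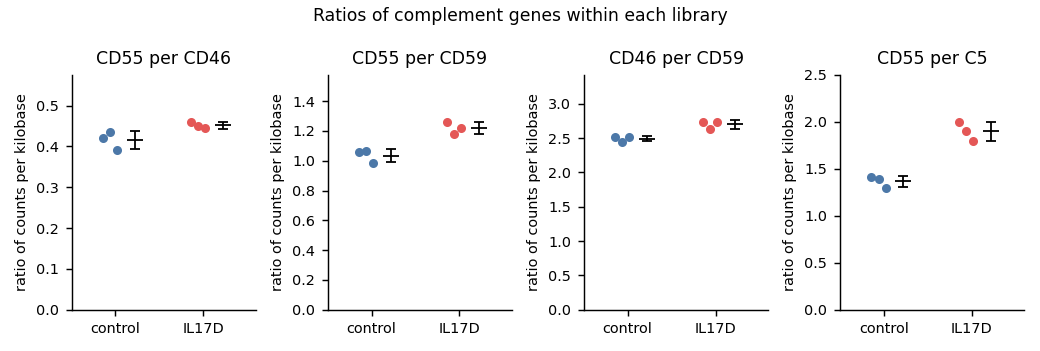
Ratios of counts per kilobase between complement genes within each library (vertical axis from 0), 1 point per library, control in blue and IL17D-overexpressing in red, with the mean and SD of 3 libraries in black. CD55 per CD46, CD55 per CD59, CD46 per CD59 and CD55 per C5 are each higher in all 3 IL17D-overexpressing libraries, with CD55 per C5 at 1.37 ± 0.0592 in control and 1.90 ± 0.102 in IL17D-overexpressing cells. CD55 and C5 are the members that rose and fell without overlap, so the separation of their ratio was fixed by the choice of genes and is no further result. The ratios of CD55 to CD46 and to CD59 also largely restate the difference in CD55.

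Of the components that are cleaved, C5 fell and C3 did not pass the test. C5 (ENSG00000106804, chromosome 9, 120952335 to 121050276, minus strand) gives rise to the attractant C5a and to C5b, the seed of the membrane pore. In control replicates 1, 2 and 3 it had 970, 868 and 1047 counts, against 810, 838 and 773 counts after IL17D overexpression, or 59.7, 60.01 and 65.1 CPM against 49.2, 51.0 and 54.2 CPM. Every IL17D-overexpressing library was below every control library, and control replicate 3 was the highest of all. The log2 fold change was -0.26 (standard error 0.059, 95% interval -0.38 to -0.14, adjusted p = 0.011 from edgeR). No other annotated gene overlaps C5, and 0.831% of the 31-base stretches in its transcripts occur elsewhere. C3 (ENSG00000125730, chromosome 19, 6677704 to 6730562), the component on which all routes converge, had 36.9, 37.1 and 33.0 CPM in control cells and 37.4, 30.8 and 31.04 CPM in IL17D-overexpressing cells. IL17D-overexpressing replicate 1 lay above all control libraries, and the other 2 lay below them. The log2 fold change of C3 was -0.11 (standard error 0.078, adjusted p = 0.68 from the edgeR model), and its 95% interval as a fold ran from 0.832 to 1.04. Without IL17D-overexpressing replicate 1 the log2 fold change was -0.21, with an adjusted p of 0.36 from the same model. C5 per C3 overlapped between the groups, with 2.21 ± 0.260 in control and 2.005 ± 0.288 in IL17D-overexpressing cells (SD, n = 3 each, per length). GPR108 overlaps the start of C3 on the same strand and had 457 to 575 counts per library, with a log2 fold change of 0.082 (adjusted p = 0.75 from edgeR).

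The classical proteases were transcribed unequally. C1S (ENSG00000182326, chromosome 12, 6988259 to 7071032, plus strand), the protease that cleaves C4 and C2, had 22.9, 20.7 and 21.0 CPM in control cells and 20.5, 18.4 and 23.1 CPM in IL17D-overexpressing cells, with the lowest and the highest library both in the latter group. Its log2 fold change was -0.064 (standard error 0.094, 95% interval -0.25 to 0.13, adjusted p = 0.87 from edgeR). C1R (ENSG00000159403, chromosome 12, 7080199 to 7092607, minus strand), the protease that activates C1s, had 73, 53 and 56 counts in control and 31, 71 and 41 counts in IL17D-overexpressing replicates. IL17D-overexpressing replicate 2 lay among the control libraries and the other 2 lay below them. The log2 fold change of C1R was -0.36 with a wide 95% interval of -0.85 to 0.13 (adjusted p = 0.64 from edgeR). Its SD was 1.22 CPM in IL17D-overexpressing cells, where counting error alone gives 0.439 CPM, and 0.538 CPM in control cells, where it gives 0.499 CPM. Without IL17D-overexpressing replicate 2 it was -0.72, with an adjusted p of 0.26 from the same model. C1S exceeded C1R per length in every library, by 4.64 to 5.50 times in control and 3.89 to 9.93 times in IL17D-overexpressing libraries. C1RL overlaps C1R on the same strand and shares sequence with it, as 11.9% of the 31-base stretches in C1R transcripts occur in other genes and most often in C1RL. With 457 to 559 counts per library C1RL was far more abundant than C1R, so reads of C1R are uncertain. EMG1 and LPCAT3 overlap C1S, with log2 fold changes of 0.066 and -0.099 (adjusted p = 0.76 and 0.82 from edgeR). LPCAT3 lies on the other strand, and whether counting used strand is not given in the sources used here.

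Factor B and factor I were barely counted. CFB (ENSG00000243649, chromosome 6, 31945650 to 31952084), the protease of the alternative convertase, had 6, 0 and 3 counts in the control libraries, against 7, 4 and 1 after IL17D overexpression. Its group totals of 9 and 12 counts give a ratio of 1.32 relative to library size, with an exact 95% counting interval of 0.511 to 3.55. CFI (ENSG00000205403, chromosome 4, 109740694 to 109802179), the protease that inactivates C3b, had 1 count in control replicate 3, 1 in IL17D-overexpressing replicate 3 and none in the other 4 libraries, a ratio of 0.990 with a counting interval of 0.0126 to 77.7. Neither was tested. The table also lists genes on the same strand that overlap them, AL645922.1 and C2 for CFB and AC126283.2 for CFI, and 42.9% and 34.5% of their 31-base stretches occur in other genes, most often in AL645922.1 and in AC126283.2. Both of those had 0 counts in every library, and C2 had 2 to 8.

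Across the 7 tested members, 2 were higher and 5 lower in IL17D-overexpressing cells, where 7858 of all 15754 tested genes were higher. Of the 5 lower members only C5 was called. The median log2 fold change was -0.064, against -0.00044 over all tested genes, and this difference was not tested. CD55, C5 and CD46 were the 3 with an unadjusted p below 0.05, which 11.6% of all tested genes had. The study's volcano plot used that unadjusted threshold together with a log2 fold change beyond 0.2 in either direction, and by it CD55 was again higher and C5 lower, where 2.57% of all tested genes were higher and 3.43% lower. CD55 was just beyond that fold threshold, at 0.216.

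**Figure D3:**
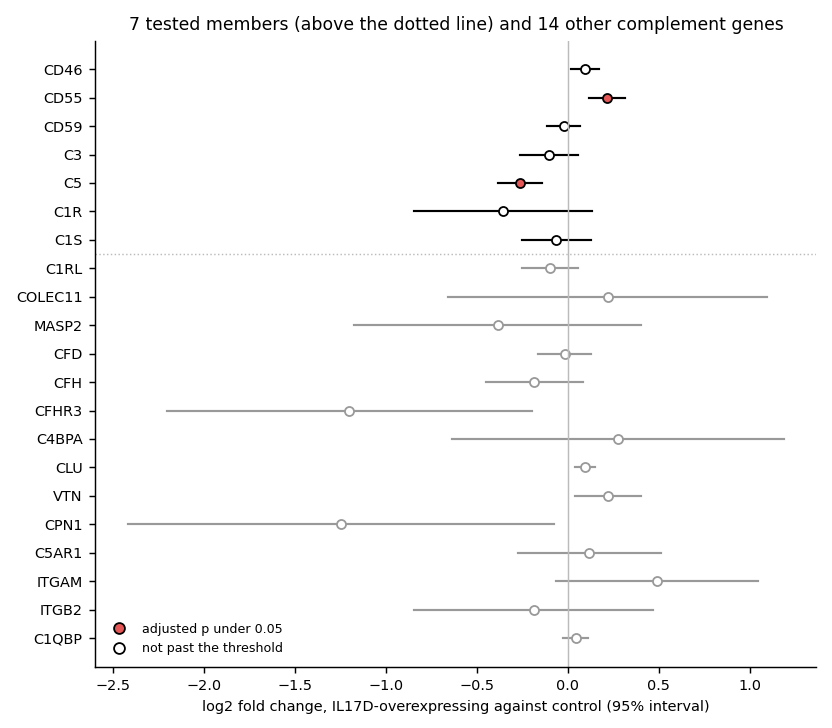
Log2 fold change of IL17D-overexpressing against control cells (horizontal axis) with its 95% interval from edgeR for the 7 tested members, above the dotted line, and 14 other tested complement genes, below it; filled points have an adjusted p under 0.05. CD55 at 0.22 and C5 at -0.26 are the filled points, and the widest intervals belong to genes with few counts such as CPN1 and CFHR3.

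The rest of the pathway was mostly silent or did not pass the test. Of 49 other complement genes, 16 had no count in any library, among them the C1q chains C1QA, C1QB and C1QC and the pore components C8A and C8B. The 14 that were tested were split evenly, with 7 higher and 7 lower and a median log2 fold change of 0.013. With edgeR 0 of them passed the adjusted threshold of 0.05. An unadjusted p below 0.05 was reached by 4, where 11.6% of all tested genes did so. DESeq2's Wald test and limma voom each called 1, which was CLU in both. Of all 15754 tested genes, DESeq2 called 187 and limma voom called 230 at the same adjusted threshold. CLU encodes clusterin, a secreted chaperone that binds the forming pore, and had 1202 ± 9.26 CPM in control and 1282 ± 29.7 CPM in IL17D-overexpressing cells (SD, n = 3 each), without overlap. Its log2 fold change was 0.094 (adjusted p = 0.077 from edgeR, 0.046 from DESeq2 and 0.021 from limma voom). VTN, which encodes vitronectin, another soluble inhibitor of the pore, had 20.9 ± 1.59 and 24.4 ± 2.01 CPM (SD, n = 3 each, log2 fold change 0.22, adjusted p = 0.31 from edgeR). CFHR3, a relative of factor H, had 15, 10 and 19 counts in control and 10, 3 and 6 counts in IL17D-overexpressing replicates (adjusted p = 0.31 from edgeR). By role, 2 of 4 genes of C3 and the alternative pathway were tested, 1 of 7 terminal genes, 6 of 14 soluble regulators, 3 of 6 membrane regulators, 3 of 9 classical genes, 2 of 8 lectin genes and 4 of 10 receptors, and of these only the terminal gene C5 and the membrane regulator CD55 were called. C5AR1, the receptor for C5a, had 4.67 ± 1.38 and 5.11 ± 0.446 CPM (SD, n = 3 each, adjusted p = 0.88 from edgeR). C3AR1, the receptor for C3a, had 1 count in all libraries together. CFD, which encodes the protease that cleaves factor B, had 35.5 ± 2.55 and 35.1 ± 1.54 CPM (SD, n = 3 each, adjusted p = 0.96 from edgeR).

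The genes whose log2 CPM followed CD55 most closely over the 6 libraries were NR4A1, an early response nuclear receptor (Pearson's r = 0.9991), IL17D itself (r = 0.9975) and NFKB2, the subunit of noncanonical NF-kB (r = 0.9965). The correlations are a description over 6 libraries that fall into the 2 groups, so that any gene with tight groups and a difference between them scores high. A group difference in these genes therefore follows from how they were picked. NR4A1 had 40.3 ± 0.806 CPM in control and 54.9 ± 0.899 CPM in IL17D-overexpressing cells (SD, n = 3 each), a log2 fold change of 0.45 (adjusted p = 9.2e-06 from edgeR). NFKB2 had 127.5 ± 0.383 CPM in control and 148.2 ± 2.18 CPM in IL17D-overexpressing cells (SD, n = 3 each), a log2 fold change of 0.22 (adjusted p = 0.0016 from edgeR).

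The direction of both called members did not depend on the processing, and their calls were lost in some of the fits that leave out 1 library. CD55 kept a log2 fold change of 0.21 to 0.22 and C5 of -0.30 to -0.22 over 13 alternatives, and both were called in 10 of them. Without control replicate 2 the adjusted p of CD55 from edgeR was 0.0505, without control replicate 3 that of C5 was 0.067, and without IL17D-overexpressing replicate 1 neither passed (0.065 for CD55 and 0.103 for C5).

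**Figure D4:**
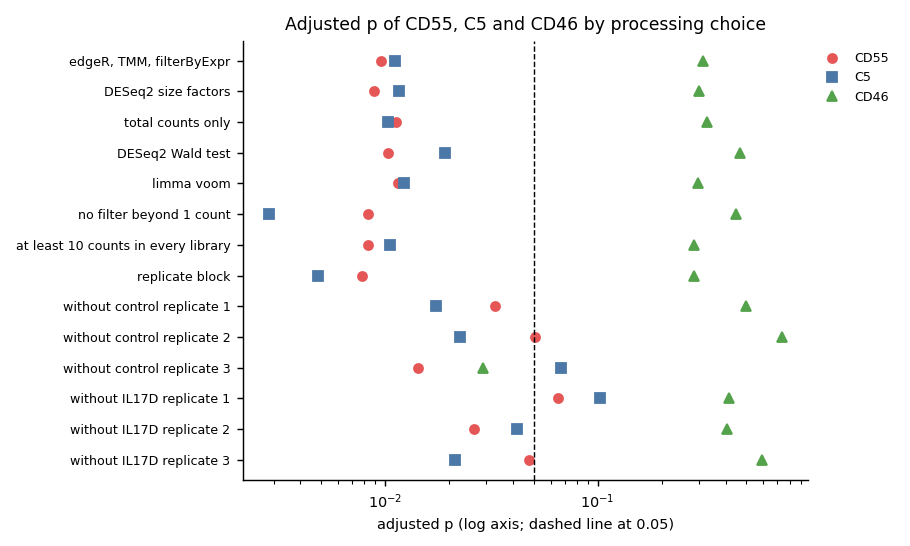
Adjusted p (horizontal log axis, dashed line at 0.05) of CD55 (circles), C5 (squares) and CD46 (triangles) under the reported settings, in the first line, and 13 alternatives. CD55 and C5 pass in each alternative that keeps all 6 libraries, CD55 fails without control replicate 2, C5 fails without control replicate 3, both fail without IL17D-overexpressing replicate 1, and CD46 passes only without control replicate 3.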

How the data were processed

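RNA-seq counts from 3 IL17D-overexpressing and 3 control libraries were used. The authors deposited 1 table of read counts per gene, without normalization. The submitters' processing notes name Bowtie2 and hg38, the counting tool and strand setting are not given in the sources used here, and methods and labels name different sequencers. All 9 members have the coordinates of GENCODE release 29 (GRCh38). Bowtie2 maps reads without splicing, which can lower counts at exon junctions if the genome was the target.

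Groups came from the sample titles. Genes were kept by filterByExpr (edgeR 4.0.16 in R 4.3.3, 15754 genes, holding 99.8% of counts), scaled by TMM and compared by the quasi-likelihood test without covariates, two-sided, with Benjamini-Hochberg adjustment over all tested genes. Standard errors were derived from the F statistic. DESeq2 1.42.0 and limma 3.58.1 were alternatives, and the fit was tested on simulated counts. Replicate libraries were not duplicates (chi-square of 2.19 to 3.39 per degree of freedom between them). The members, lists and motifs were chosen with earlier results of these data known. Named genes are all members, the 3 other complement genes with the smallest p, genes overlapping a member and the 3 genes most like the member with the smallest p. Overlapping pseudogenes and an intronic RNA, with almost no counts, are left out. C5AR1, C3AR1, CFD and CPN1 are named beside this rule after their values were seen. A list of regulators of complement transcription is not reported here.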

Additional observations from a re-analysis of the deposited data

How the results depend on the processing

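The alternatives were DESeq2's size factors, total counts, DESeq2's Wald test, limma voom, no filter beyond 1 count, a minimum of 10 counts per library, a replicate block, and the omission of 1 library at a time. The number of called members was 2 in all of them but those that leave out a library, where it ran from 0 to 2. At the volcano thresholds it was 2 in 11 of the 13 alternatives and 3 without IL17D-overexpressing replicate 1 and without IL17D-overexpressing replicate 2. The number of other complement genes called was 1 with DESeq2 and 1 with limma voom, and it ran from 0 to 1 when a library was left out. When IL17D-overexpressing replicate 2 was left out, that gene was CPN1, with a log2 fold change of -2.95 (adjusted p = 0.035 from edgeR), and with both tools it was CLU. IL17D kept its call throughout. Over all tested genes, the volcano thresholds gave 946 genes, 628 with DESeq2 and 1446 without a filter. The adjusted threshold gave 249 genes, 187 with DESeq2 and 230 with limma voom. It gave 159, 197 and 147 genes without IL17D-overexpressing replicate 1, 2 and 3. Same-numbered libraries did not visibly deviate together, with correlations of -0.015 to 0.010, against -0.041 to 0.054 for differently numbered ones. The numbers thus gave no sign of pairing, but correlations over all genes cannot exclude a small shared effect. With the replicate number as a block, 2 members, 0 other complement genes and 272 genes in all were called, and CD55 and C5 had adjusted p-values of 0.0078 and 0.0049 from edgeR, with IL17D at a log2 fold change of 10.19. C1S and CD59, not called, changed sign in 1 alternative each. Other scalings shifted the median gene by -0.0030 to 0.0015 in log2. The cause of these differences was not tested. Depth limits CFB and CFI, and a difference between the cell populations that all 3 libraries of a group share cannot be told apart from the effect of IL17D.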

Other observations

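CPN1, which encodes the catalytic chain of the carboxypeptidase that trims C3a and C5a, had 16, 10 and 12 counts in the control libraries, against 2, 13 and 1 after IL17D overexpression. IL17D-overexpressing replicate 2 lay among the control libraries, and the log2 fold change was -1.25 (adjusted p = 0.39 from edgeR). ITGAM, which encodes a chain of complement receptor 3, had 30, 28 and 25 counts in control and 40, 44 and 34 counts in IL17D-overexpressing replicates, without overlap (log2 fold change 0.49, adjusted p = 0.52 from edgeR). Both genes were picked after their values were seen.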
